A study of Mus musculus with 6 samples.

Results

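The hair shaft keratins are the structural filament proteins of the hard, cornified hair fibre. Krt31, Krt32, Krt33a, Krt33b, Krt34, Krt35, Krt36, Krt82, Krt85 and Krt86 were chosen as members, and every probe set that the platform annotation pairs with one of these symbols was used. This gave 9 of the 18193 genes tested, each with exactly 1 of the 45101 probe sets on the array; Krt85, the other of the 10, was not analysed here. The arrays come from a study of chromatin states along the hair follicle lineage of the mouse, and 3 cell populations were compared with 2 arrays each. The cells of every population were isolated by cell sorting from back skin of untreated female CD-1 mice, an outbred strain. HF-TAC, the transient-amplifying matrix cells, came from mice of postnatal days 28 to 30 and were sorted with GFP, integrin α6 and ephrinB1. aHF-SC, the stem cells of the follicle in their activated state, came from mice of the same age, with GFP, integrin α6 and CD34 as sorting markers. qHF-SC, the stem cells in their quiescent state, came from mice of postnatal days 52 to 60 and were sorted with integrin α6 and CD34. The labels leave out the carrier of the GFP and whether each gate took the cells high or low for a marker. Age and sorting scheme differ between qHF-SC and the other populations together with cell state, and these cannot be told apart. Whether the 2 arrays of a population stem from different animals is not in the labels, and every p-value here therefore rests on array-to-array spread that may be technical only.

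Keratin filaments are built from pairs of an acidic type I and a basic type II protein. Krt31 to Krt36 are type I and Krt82, Krt85 and Krt86 are type II hair keratins, rich in cysteine, which lets them be cross-linked with keratin-associated proteins as the fibre hardens. The growing hair is fed by the matrix, whose dividing cells surround the dermal papilla, while the bulge higher up holds the stem cells. In the human follicle, KRT35 and KRT85 appear first, in the matrix and the cells just above it. KRT31 and then KRT33A, KRT33B, KRT34 and KRT86 follow in the cortex, and KRT32 and KRT82 belong to the cuticle. The transcription factors Hoxc13, Foxn1 and Lef1 are known regulators of hair keratin genes.

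Promoter sequences are shown because several of these genes share short sequence elements at like distances from their starts, whether or not their transcripts differed between the populations. The RefSeq promoter table (GRCm38.p6) held 6 of the members: Krt31, Krt32, Krt33b, Krt34, Krt36 and Krt82. The 250 bases before the annotated start were read, all on the minus strand: chr11:100050552-100050801 for Krt31, chr11:100029869-100030118 for Krt33b, chr11:100088270-100088519 for Krt32, chr11:100041555-100041804 for Krt34 and chr11:100105627-100105876 for Krt36. Capitals mark CTTTGAA, the letters of a Lef/Tcf-type site, TTTTATG, part of the AT-rich site of Hoxc13 type, and TATAAA, a form of the TATA box.
Krt31: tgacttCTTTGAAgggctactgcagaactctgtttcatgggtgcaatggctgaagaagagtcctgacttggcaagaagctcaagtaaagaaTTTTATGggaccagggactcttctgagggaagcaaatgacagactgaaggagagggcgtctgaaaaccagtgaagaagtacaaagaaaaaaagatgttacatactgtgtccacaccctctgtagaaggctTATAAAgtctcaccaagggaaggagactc
Krt33b: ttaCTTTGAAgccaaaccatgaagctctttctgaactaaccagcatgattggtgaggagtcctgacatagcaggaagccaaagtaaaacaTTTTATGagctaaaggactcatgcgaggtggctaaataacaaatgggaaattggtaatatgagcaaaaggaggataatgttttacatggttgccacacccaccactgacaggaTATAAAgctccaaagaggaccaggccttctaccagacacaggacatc
Krt32: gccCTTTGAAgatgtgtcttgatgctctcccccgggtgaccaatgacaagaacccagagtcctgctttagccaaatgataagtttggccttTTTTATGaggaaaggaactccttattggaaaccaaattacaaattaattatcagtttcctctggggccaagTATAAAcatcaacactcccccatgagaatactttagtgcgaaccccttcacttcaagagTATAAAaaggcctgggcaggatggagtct
Krt34: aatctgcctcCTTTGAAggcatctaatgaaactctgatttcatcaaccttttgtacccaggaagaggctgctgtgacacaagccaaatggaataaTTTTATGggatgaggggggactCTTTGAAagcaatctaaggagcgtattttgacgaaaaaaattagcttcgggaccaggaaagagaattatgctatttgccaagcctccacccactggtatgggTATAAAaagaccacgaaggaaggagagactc
Krt36: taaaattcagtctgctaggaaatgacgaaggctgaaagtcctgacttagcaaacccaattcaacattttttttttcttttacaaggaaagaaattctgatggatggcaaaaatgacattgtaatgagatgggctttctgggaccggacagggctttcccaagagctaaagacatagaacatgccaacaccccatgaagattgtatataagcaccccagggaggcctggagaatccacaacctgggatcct
Both strands were searched, the motifs were picked with the sequences in view, and none of the marked matches overlap each other. Krt31, Krt32, Krt33b and Krt34 each held all 3 motifs. Of the 32851 mouse promoters of the same length, which include these 4, 0.07001% held all 3. Since the motifs were picked from these windows, that share is no test of enrichment. Taken singly, CTTTGAA was found in 4.456% of those promoters, TTTTATG in 3.772% and TATAAA in 12.37%. In the 4 genes, the first CTTTGAA began between 247 and 240 bases before the start and TTTTATG between 160 and 155 bases before it. The nearest TATAAA began 29 bases before the start in Krt31 and Krt32, 31 in Krt34 and 47 in Krt33b. The window of Krt36 held no exact match to any of the 3 motifs. It did hold TATATAAG, a TATA-like stretch that the exact search did not count. The window of Krt82, at chr15:101550660-101550909, held TTTTATG alone of the 3, 198 bases before the start. Pairwise identity of the windows was 61.48% for Krt31 and Krt34 and 44.59% for Krt36 and Krt82, the highest and lowest of the 15 pairs. A match is a description of the sequence and says nothing of binding in these cells. The genes with all 3 motifs included Krt31 and Krt33b, which were higher in HF-TAC than in qHF-SC, and Krt32 and Krt34, which did not pass that test.

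The deposited values are linear intensities of probe sets, and each array's median was between 22.8 and 23.9. An intensity of 27.5, the highest median that 18 genes of other tissues reached on any array, is used as the background level below. Being a median, it lies below some of these genes: Ins2 had 87.0 to 117 and Prm1 57.1 to 65.8 over the 6 arrays. An intensity above 27.5 therefore does not by itself show that a gene was expressed. Apart from this use as a background, intensities of different probe sets are not compared with each other. The sorting markers describe the gates: Cd34 stood at 15.3 and 25.7 in HF-TAC, 2385 and 3250 in aHF-SC, and 7186 and 8557 in qHF-SC. Itga6, the integrin α6 gene, had 1070 and 854 in HF-TAC, 2772 and 2277 in aHF-SC, and 2812 and 2120 in qHF-SC, and was lower in HF-TAC than in aHF-SC (log2 difference -1.39, limma adjusted p = 0.00444). Efnb1, which encodes ephrinB1, stood at 845 and 1010 in HF-TAC, 727 and 795 in aHF-SC, and 581 and 421 in qHF-SC, and the HF-TAC and aHF-SC levels did not differ past the threshold (0.28 on the log2 scale, adjusted p = 0.448). Of 6 matrix markers, 4 were higher in HF-TAC than in aHF-SC and 0 lower, and of 7 bulge stem cell markers 0 were higher and 7 lower. The bulge markers include Cd34, which was itself used for sorting and is not independent of the gates. Markers of other cells were also present. The 5 measured markers of differentiated epidermis summed to 22679 and 13368 in HF-TAC, 5490 and 4770 in aHF-SC, and 15950 and 15176 in qHF-SC. The 7 inner root sheath markers summed to 6021 and 12184 in HF-TAC, 828 and 1161 in aHF-SC, and 632 and 485 in qHF-SC. The 5 melanocyte markers summed to 419 and 617 in HF-TAC, 259 and 340 in aHF-SC, and 202 and 155 in qHF-SC. Of 3 genes listed for the companion layer, Krt79 is a keratin of the upper follicle, and the list is therefore not summed. Krt79 had 11194 and 6644 in HF-TAC against 399 and 241 in aHF-SC (27.8-fold, limma adjusted p = 0.000263). Krt75 had 356 and 788 in HF-TAC against 148 and 159 in aHF-SC (3.46-fold, adjusted p = 0.0110), and Krt6a did not pass (adjusted p = 0.233). In each of these lists some markers lay above the background level in HF-TAC, and the part of such cells in the keratin values was not tested. In sorted populations measured in bulk, more cells of a type and more RNA per cell cannot be told apart.

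The first comparison asks how hair shaft keratin transcripts differ between the matrix cells and the activated stem cells, taken from mice of the same age. These populations also differ in a sorting marker, ephrinB1 for HF-TAC and CD34 for aHF-SC. Of the 9 keratins, 4 were higher in HF-TAC, 0 were lower and 5 did not pass the test. The genes that passed were Krt35, Krt33a, Krt31 and Krt36, all type I. Over all 18193 genes tested, 8.97% were called higher and 8.57% lower at an adjusted p of 0.05 (limma, Benjamini-Hochberg over all genes). At an unadjusted p under 0.05, 5 of the 9 keratins were higher and 0 lower. The median difference of the 9 keratins was 0.91 on the log2 scale, against -0.012 over all genes.

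Krt35, the type I keratin that in human follicles appears in the matrix and the cells just above it, showed the largest difference of the 9. Its intensity was 3528 and 8535 in HF-TAC, 98.6 and 201 in aHF-SC, and 12.0 and 16.2 in qHF-SC. The populations did not overlap, and both qHF-SC arrays lay below the background level. HF-TAC was 39.0-fold higher than aHF-SC (95% interval 18.2 to 83.2, log2 difference 5.28 ± 0.47 SE, limma adjusted p = 0.000687). This call held in every setting tried, including each setting that left out 1 array, where the log2 difference lay between 4.65 and 5.92.

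**Figure D1:**
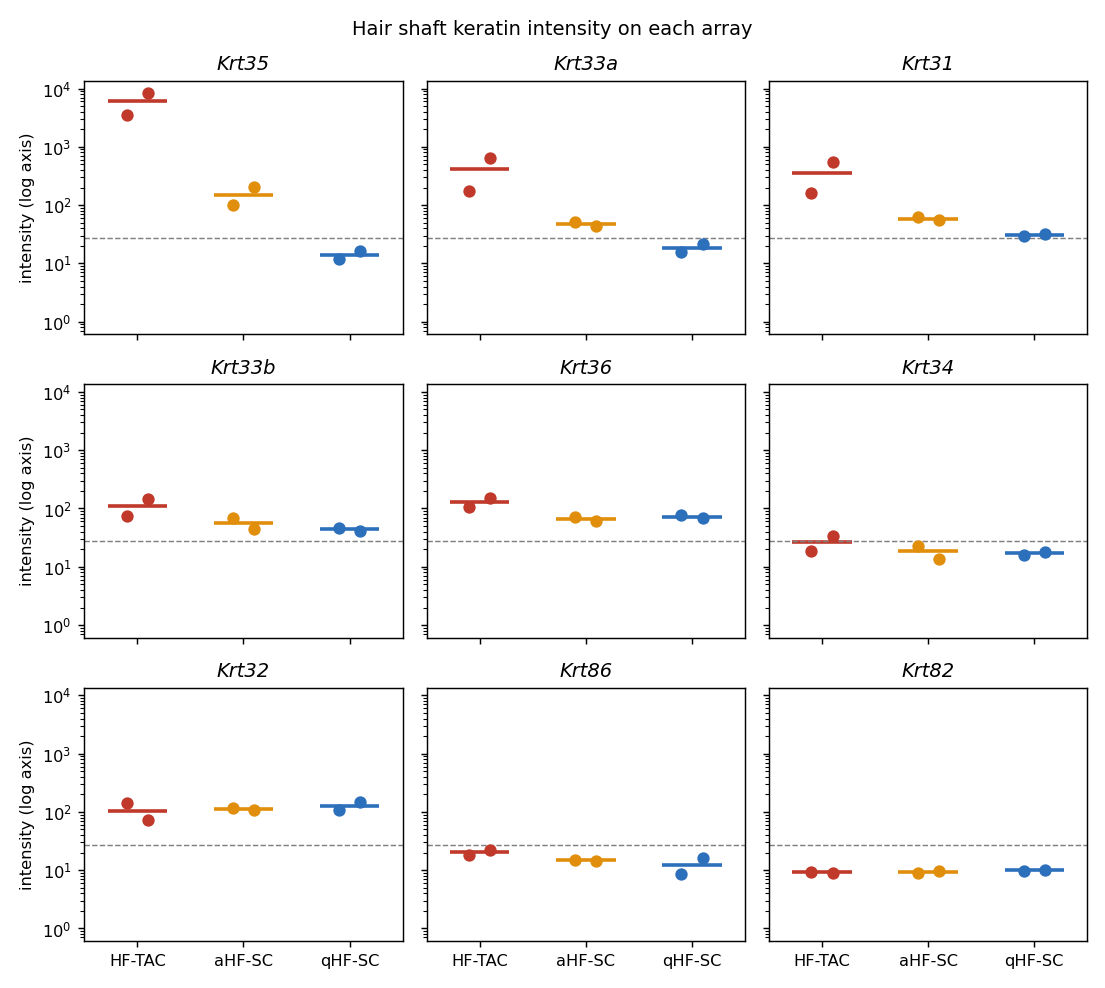
Intensity of each hair shaft keratin on each array (points, log axis) with the mean of the 2 arrays (line) in HF-TAC, aHF-SC and qHF-SC; the dashed line is the background level of 27.5. Krt35, Krt33a and Krt31 separate the 3 populations in the same order, while Krt32 overlaps between them and Krt82 and Krt86 lie below the dashed line throughout.

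Krt33a and Krt31, type I keratins of the cortex in the human follicle, followed the same order of populations. Krt33a had intensities of 174 and 643 in HF-TAC, 51.3 and 43.3 in aHF-SC, and 15.7 and 21.6 in qHF-SC. Krt31 had 160 and 552 in HF-TAC, 61.9 and 55.7 in aHF-SC, and 29.0 and 31.4 in qHF-SC. For both genes every HF-TAC array was above every aHF-SC array, and the 2 HF-TAC arrays were far apart. Krt33a was 7.09-fold higher in HF-TAC than in aHF-SC (2.83 ± 0.53 SE on the log2 scale, limma adjusted p = 0.0113). Krt31 was 5.06-fold higher (2.34 ± 0.49 SE, adjusted p = 0.0172). The size of both differences depended on the HF-TAC array: the log2 difference of Krt33a was 3.77 without HF-TAC replicate 1 and 1.88 without replicate 2, and that of Krt31 was 3.23 and 1.45 in the same order. The Krt33a call ended without aHF-SC replicate 2 (adjusted p = 0.0692) and narrowly with 16 added to every intensity before the log (0.0504). The Krt31 call ended without aHF-SC replicate 1 (0.0638) or 2 (0.0916) and with the added 16 (0.0662).

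Krt36 and Krt33b differed by smaller amounts. Krt36, which in the human follicle is a cortex keratin of few cells, had intensities of 105 and 150 in HF-TAC, 71.8 and 61.8 in aHF-SC, and 77.3 and 67.6 in qHF-SC. The HF-TAC arrays lay above the other 4, which overlapped. Ins2, a gene of another tissue, had 87.0 to 117, a range that includes the lower HF-TAC array. Krt36 was 1.89-fold higher in HF-TAC than in aHF-SC (0.92 ± 0.21 SE, adjusted p = 0.0231), a call that ended without HF-TAC replicate 2 (0.0953) or aHF-SC replicate 1 (0.0567) or 2 (0.127). Krt33b, the close relative of Krt33a and its neighbour on the chromosome, had 73.2 and 146 in HF-TAC, 67.5 and 45.2 in aHF-SC, and 46.9 and 40.9 in qHF-SC. Only its HF-TAC replicate 2 lay above the Ins2 range. The lower HF-TAC array was close to the higher aHF-SC array, and the difference of 0.91 ± 0.34 SE missed the threshold (adjusted p = 0.120). Without HF-TAC replicate 1 it was 1.41 and passed (0.0183).

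Krt34, Krt32, Krt86 and Krt82 did not pass in any of the 3 comparisons. Krt34, a cortex keratin in the human follicle, had intensities of 18.7 and 34.3 in HF-TAC, 23.1 and 13.7 in aHF-SC, and 16.1 and 17.8 in qHF-SC, so that 1 array of 6 was above the background level. Krt32, a cuticle keratin in the human follicle, had 140 and 71.2 in HF-TAC, 117 and 109 in aHF-SC, and 108 and 146 in qHF-SC. Krt32 was above the background level on every array, and its populations overlapped. The 95% interval of its log2 difference between HF-TAC and aHF-SC ran from -0.92 to 0.56. Ins2, a gene of another tissue, reached like intensities (87.0 to 117), so whether this signal was Krt32 transcript is not known. Krt86, a type II cortex keratin, lay between 8.64 and 22.2 over the 6 arrays, and Krt82, the type II cuticle keratin, between 8.87 and 10.1. Both were below the background level on all 6 arrays, so their transcripts were not detectable above background here. The probe set of Krt82 carries a suffix for sets that can match transcripts of several genes. Several of these keratins have closely similar relatives, and cross-hybridisation between them was not tested.

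HF-TAC and qHF-SC were set side by side as the matrix cells of the growing follicle and the stem cells of the resting one. Of the 9 keratins, 5 were higher in HF-TAC, 0 were lower and 4 did not pass. Over all genes, 13.4% were called higher and 12.9% lower. At an unadjusted p under 0.05, 6 keratins were higher and 0 lower in limma. The median difference of the keratins was 0.80 on the log2 scale, against -0.0089 over all genes. Both comparisons use the same HF-TAC arrays, so they are not independent.

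Krt35 was 395-fold higher in HF-TAC than in qHF-SC (8.62 ± 0.47 SE on the log2 scale, limma adjusted p = 6.27e-05). Since qHF-SC lay below the background level, the size of this fold is uncertain; against the background level itself the HF-TAC mean was 200-fold higher. Krt33a was 18.1-fold higher (4.18 ± 0.53 SE, adjusted p = 0.00131) and its qHF-SC arrays were also below background, against which the HF-TAC mean was 12.2-fold higher. Krt31 was 9.84-fold higher (3.30 ± 0.49 SE, adjusted p = 0.00263). These 3 genes kept their calls in every setting tried. Their log2 differences without HF-TAC replicate 1 and without replicate 2 were 9.26 and 7.99 for Krt35, 5.12 and 3.24 for Krt33a, and 4.19 and 2.41 for Krt31. Krt33b was 2.36-fold higher (1.24 ± 0.34 SE, adjusted p = 0.0322) and Krt36 was 1.74-fold higher (0.80 ± 0.21 SE, adjusted p = 0.0270). The Krt33b call was lost when replicate numbers entered the fit as a block (0.0570), with the added 16 (0.0837), and without HF-TAC replicate 2 (0.117) or qHF-SC replicate 1 (0.0957) or 2 (0.151). The Krt36 call ended without HF-TAC replicate 2 (0.122) or qHF-SC replicate 1 (0.0731) or 2 (0.147). Krt86 differed by 0.78 ± 0.28 SE (adjusted p = 0.0865) between groups that were both below background, and passed without qHF-SC replicate 2 (0.0149). Krt32 differed by -0.33 ± 0.31 SE (adjusted p = 0.530); without HF-TAC replicate 1 the difference was -0.82 and narrowly passed (0.0487).

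**Figure D2:**
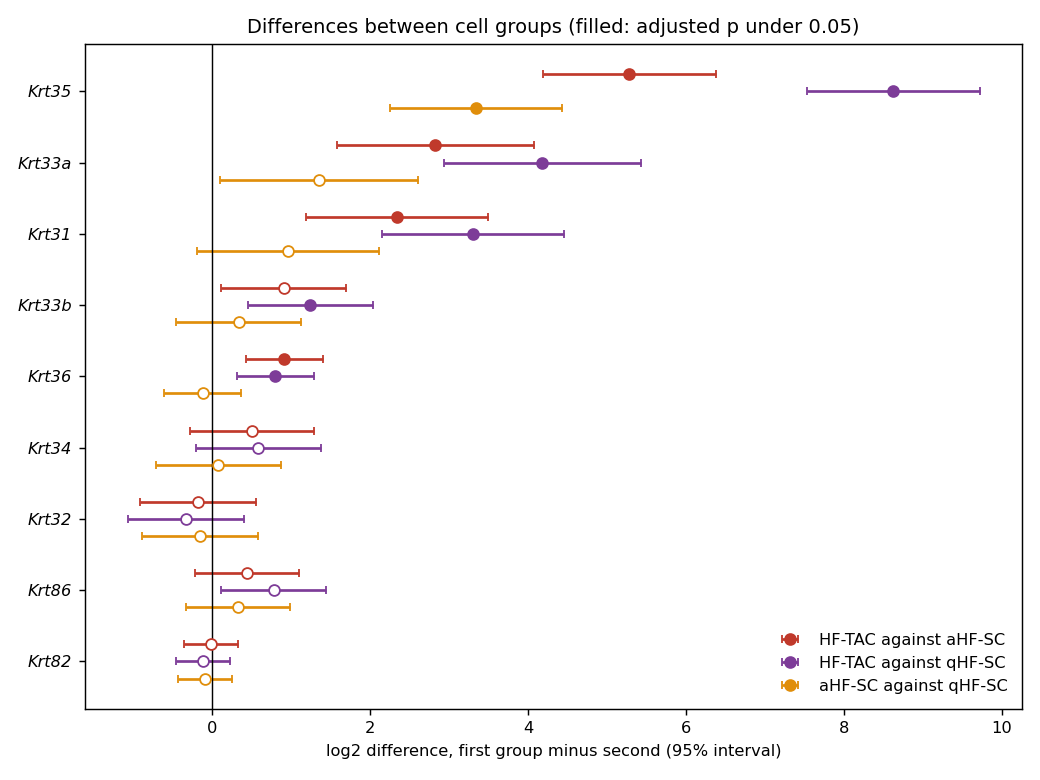
Log2 difference in intensity of each hair shaft keratin for the 3 comparisons, first population minus second, with 95% intervals from the limma fit; filled points passed an adjusted p of 0.05. Krt35 lies farthest right in every comparison, and the intervals of Krt32, Krt34 and Krt82 include 0 throughout.

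Activated and quiescent stem cells differed in 1 of the 9 keratins. Krt35 was higher in aHF-SC and the other 8 did not pass; 0 were lower. Over all genes, 3.07% were called higher and 3.21% lower, and a count of 1 in 9 is too small to set against that background. At an unadjusted p under 0.05, limma gave 2 keratins higher, Krt35 and Krt33a, and 0 lower. The median difference of the keratins was 0.33 on the log2 scale, against 0.0048 over all genes.

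Krt35 was 10.1-fold higher in aHF-SC than in qHF-SC (95% interval 4.74 to 21.6, 3.34 ± 0.47 SE on the log2 scale, limma adjusted p = 0.0118). The aHF-SC mean was 5.13-fold above the background level, below which both qHF-SC arrays lay. The call ended with 16 added to every intensity (log2 difference 2.40, adjusted p = 0.0783) and, narrowly, without qHF-SC replicate 1 (0.0514) or 2 (0.0671). Krt33a, at 1.35 ± 0.53 SE (adjusted p = 0.210), and Krt31, at 0.96 ± 0.49 SE (0.341), had every aHF-SC array above every qHF-SC array and did not pass. With only the 4 arrays of these populations in the fit, which leaves out the HF-TAC arrays, Krt33a (0.0169) and Krt31 (0.0196) passed as well. Krt33b (0.34 ± 0.34 SE, adjusted p = 0.684) and Krt36 (-0.12 ± 0.21 SE, 0.838) overlapped between the populations.

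Some inner root sheath keratins and most markers of dividing cells were also higher in aHF-SC than in qHF-SC, and no matrix marker passed the test. Of 7 measured inner root sheath keratins, 3 were higher in aHF-SC than in qHF-SC and 0 lower. These were Krt25, with 99.6 and 245 in aHF-SC against 22.7 and 13.8 in qHF-SC, Krt27, with 56.4 and 91.7 against 18.0 and 24.9, and Krt28, with 61.8 and 100.2 against 19.2 and 16.5. Of 7 measured markers of dividing cells, 6 were higher and 0 lower; their sums were 2618 and 1234 in aHF-SC and 285 and 214 in qHF-SC. Of the 6 matrix markers, 0 were higher and 0 lower in limma, also at an unadjusted p under 0.05. The median log2 difference of the matrix markers was 0.44. Lef1 stood at 41.4 and 43.3 in aHF-SC and at 38.4 and 32.6 in qHF-SC. Shh stood at 23.0 and 39.8 in aHF-SC and at 26.4 and 18.1 in qHF-SC. Dlx3 had 212 and 418 in aHF-SC against 177 and 113 in qHF-SC, and Hoxc13 had 406 and 486 against 334 and 254. For Lef1, Dlx3 and Hoxc13 every aHF-SC array was above every qHF-SC array, while Msx2, Foxn1 and Shh overlapped. The same aHF-SC array, replicate 2, was the higher one for Krt35, Krt25, Krt27 and Krt28. It was also the higher one for each matrix marker, whose sum was 774 on replicate 1 and 1118 on replicate 2. Replicate 2 was the lower one for Krt31 (0.899 of replicate 1), Krt32 (0.929), Krt33a (0.843), Krt33b (0.670) and Krt36 (0.861). It was also the lower one for the sum of the dividing cell markers. Over all genes the median ratio of these arrays was 1.01. The part of other follicle cells in the Krt35 value of aHF-SC was not tested.

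The 2 HF-TAC arrays were more than 2-fold apart in 3 of the 9 hair shaft keratins. Replicate 2 exceeded replicate 1 by 3.70-fold in Krt33a, 3.44-fold in Krt31, 2.42-fold in Krt35, 2.00-fold in Krt33b and 1.42-fold in Krt36. Krt34, at 34.3 on replicate 2 and 18.7 on replicate 1, and Krt86, at 22.2 and 18.2, were at or near background, and their ratios are not read. Krt32 ran the other way, with replicate 2 at 0.509 of replicate 1, and Krt82 was below background on both. Over all genes the median ratio of the arrays was 1.02, and 2.50% of genes were more than 2-fold apart in either direction. The summed intensity of the 9 keratins was 4227 on replicate 1 and 10162 on replicate 2. Other lists also differed between the arrays. In the same order, the matrix markers summed to 2756 and 5303, with 6 of 6 higher on replicate 2, and the differentiated epidermis markers to 22679 and 13368, with 0 of 5 higher. The dermal fibroblast markers summed to 158 and 397, with 5 of 5 higher, among them Col3a1 (3.98-fold) and Col1a2 (2.57-fold). Of these 5, Pdgfra and Lum lay below the background level on both arrays, and their ratios are not read. The melanocyte markers summed to 419 and 617, with 5 of 5 higher, among them Mlana (2.31-fold). Of these 5, Tyr lay below the background level on both arrays. Tyrp1, at 21.2 and 88.0, lay below it on replicate 1, so its ratio is not read. The bulge stem cell markers summed to 9521 and 6813 because of Krt15, at 8075 and 4744, while 5 of the 7 were higher on replicate 2. Those 5 include Cd34, which lay below the background level on both arrays. Among inner root sheath keratins the ratio of replicate 2 to replicate 1 was 3.14 in Krt71 and 2.01 in Krt25; among epidermal markers it was 0.387 in Krt1 and 0.197 in Lor, which encodes loricrin. The part of the makeup of the sorted cells in these differences was not tested.

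**Figure D3:**
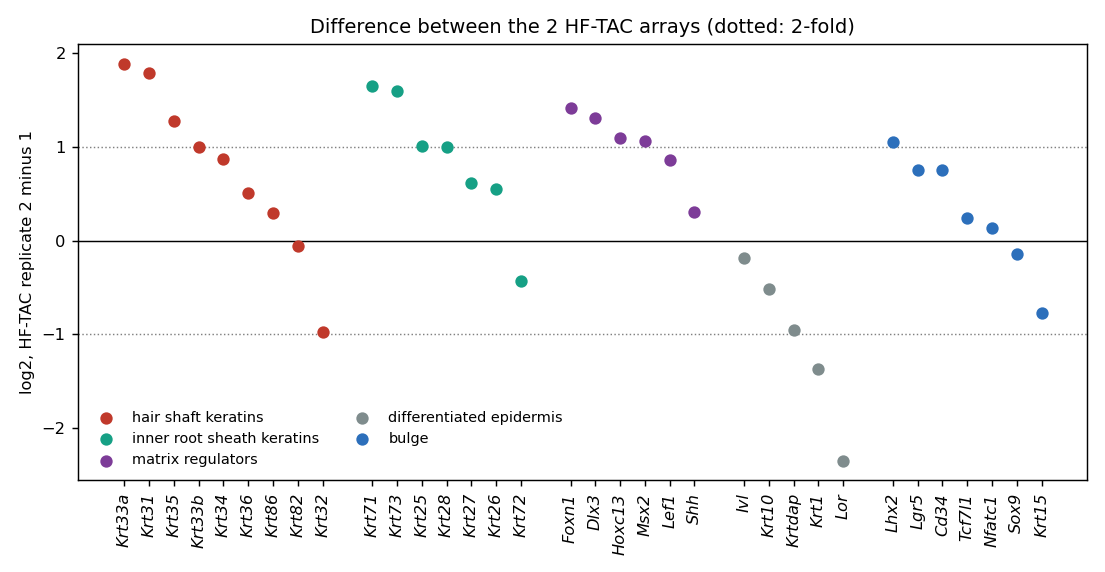
Log2 difference between the 2 HF-TAC arrays, replicate 2 minus replicate 1, for the hair shaft keratins, inner root sheath keratins, matrix markers, differentiated epidermis markers and bulge markers; dotted lines mark 2-fold. All 6 matrix markers and 7 of the 9 hair shaft keratins lie above 0, among these Krt34 and Krt86, which were at or near background. All 5 epidermal markers lie below 0, and the median over all genes was 0.024.

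The genes that act around the hair keratins include transcription factors of the matrix. Of 18 regulators of hair keratin genes, 7 were higher, 2 were lower and 9 did not pass in HF-TAC against aHF-SC, with a median log2 difference of 0.60. Cux1, a homeobox factor of the inner root sheath and matrix, had 967 and 1929 in HF-TAC against 105 and 102 in aHF-SC (13.2-fold, limma adjusted p = 0.000641). Lef1, the Wnt effector that binds hair keratin promoters, had 400.1 and 728 in HF-TAC against 41.4 and 43.3 in aHF-SC (12.7-fold, adjusted p = 0.000410). Msx2 and Msx1, homeobox factors of the matrix, were 8.47-fold and 8.36-fold higher (adjusted p = 0.00147 and 0.000760). Hoxc13, whose mutation disturbs hair keratin expression in mice, had 423 and 905 in HF-TAC, 406 and 486 in aHF-SC, and 334 and 254 in qHF-SC, and did not pass in any of the 3 comparisons. Foxn1, the nude gene, had 46.7 and 125 in HF-TAC against 14.7 and 21.9 in aHF-SC (adjusted p = 0.0190). Vdr, the vitamin D receptor, and Rbpj, the Notch effector, were the lower ones, at -1.51 and -1.14 on the log2 scale. Between aHF-SC and qHF-SC, 0 of the 18 passed in either direction in limma, and at an unadjusted p under 0.05 there was 1 higher and 1 lower. Hoxc13, Foxn1, Vdr and Rbpj were chosen after their values were seen.

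Other genes of the hair shaft went in both directions. Of 9 measured, 6 were higher and 1 lower in HF-TAC than in aHF-SC, with a median log2 difference of 1.79. Selenbp1, a selenium-binding protein, had 1912 and 3334 in HF-TAC against 157 and 237 in aHF-SC (13.1-fold, adjusted p = 0.000595). S100a3, a calcium-binding protein of the hair cuticle, was 4.51-fold higher (adjusted p = 0.00147), and Tgm3, a transglutaminase that cross-links hair proteins, was 4.01-fold higher (0.00105). Vsig8 was lower in HF-TAC, with 33.6 and 48.5 against 237 and 482 in aHF-SC (log2 difference -3.06, adjusted p = 0.00792). The other type II hair keratins measured, Krt81, Krt83 and Krt84, gave 0 calls in either direction in all 3 comparisons of the limma fit. At an unadjusted p under 0.05, 0 of them differed between HF-TAC and aHF-SC, Krt81 and Krt83 were higher in HF-TAC than in qHF-SC, and Krt81 was higher in aHF-SC than in qHF-SC.

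The keratins of other follicle layers gave the frame for these values. Of 7 measured inner root sheath keratins, 6 were higher and 0 lower in HF-TAC than in aHF-SC: Krt28 was 27.5-fold, Krt25 23.7-fold, Krt73 9.88-fold and Krt27 9.80-fold higher. Of 5 keratins of the basal layer, bulge and outer root sheath, 0 were higher and 3 lower. Krt24, a bulge keratin, had 30.9 and 30.7 in HF-TAC against 1713 and 2853 in aHF-SC (log2 difference -6.16), and Krt15 and Krt5 differed by -1.87 and -1.40.

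**Figure D4:**
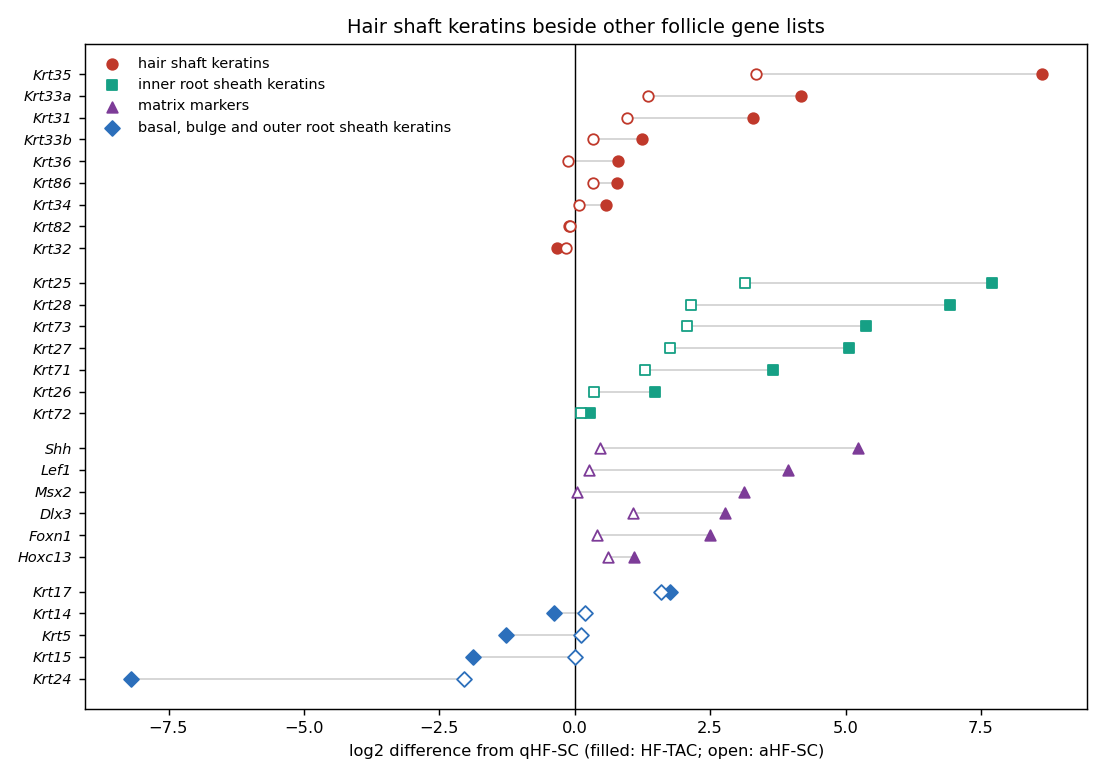
Log2 difference from qHF-SC of each hair shaft keratin, inner root sheath keratin, matrix marker and basal, bulge or outer root sheath keratin, in HF-TAC (filled) and in aHF-SC (open). Both sets of differences share the qHF-SC arrays; Krt35 and the inner root sheath keratin Krt25 lie farthest right in both.

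The type I members lie side by side on mouse chromosome 11 (GRCm38.p6), between the keratin-associated gene Krtap17-1 and Krt13, in the order Krt33a, Krt33b, Krt34, Krt31, Krt32, Krt35, Krt36. Krt32, whose difference did not pass, lies between Krt31 and Krt35, and Krt34 lies between Krt33b and Krt31. The type II members lie on chromosome 15, Krt86 between Krt81 and Krt83, and Krt82 between Krt84 and Krt90.

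**Figure D5:**
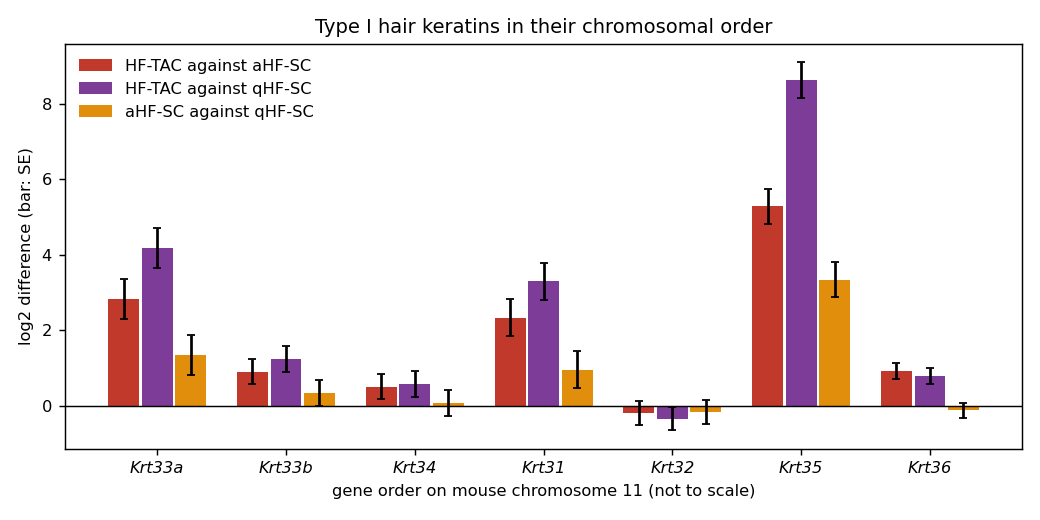
Log2 difference of the 7 type I members in their order on chromosome 11, which is not to scale, with the SE of the limma fit as error bars. The large differences of Krt33a, Krt31 and Krt35 are separated by the small ones of Krt33b, Krt34 and Krt32.

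The members varied together only in part. The mean log2 intensity of the 9 keratins was 6.47 and 7.20 in HF-TAC, 5.44 and 5.34 in aHF-SC, and 4.60 and 4.84 in qHF-SC. Pearson's r of each member with this mean over the 6 arrays was highest for Krt33a (0.9976), Krt31 (0.9909) and Krt35 (0.9809), then Krt33b (0.9229), Krt36 (0.8851), Krt86 (0.8300) and Krt34 (0.7435), and negative for Krt32 (-0.5485) and Krt82 (-0.6507). The mean contains each member, the 6 arrays fall into 3 populations, and r is given as a description alone. Among 1131 other genes whose highest and lowest population means were at least 4-fold apart, the 5 most like this mean over the 6 arrays were Mthfd2 (r = 0.9982), a mitochondrial folate enzyme, Bora (0.9976), a cofactor of the mitotic kinase Aurora A, Dpp4 (0.9969), a membrane peptidase, Cenpm (0.9943), a kinetochore protein, and Mfsd2a (0.9943), a lipid transporter. Mthfd2 had intensities of 220 and 358 in HF-TAC, 94.7 and 87.9 in aHF-SC, and 57.0 and 62.8 in qHF-SC, which ranks the 6 arrays in the same order as Krt33a does.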

How the data were processed

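RNA of 3 sorted populations of mouse hair follicle cells, 2 arrays each, was measured on an Affymetrix mouse expression array from 2 µg of total RNA per array, extracted with Trizol, per the labels' protocols. The deposited values are linear intensities of 3.83 to 31188. RMA is named in the submitters' processing notes; its version, software and chip definition are not stated there or in the labels. RMA usually normalises arrays to a common distribution and compresses dim signals, so dim values are treated as near background, not as absent RNA.

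Of 45101 probe sets, 64 controls were left out; 34945 carried 1 gene symbol in the platform annotation, 932 several and 9160 none. No probe set with several symbols listed a member. Of the 34945, 34741 Entrez identifiers were found in a RefSeq gene table (GRCm38.p6), and 0 symbols needed updating. Each gene was represented by the probe set with the highest mean log2 intensity over the 6 arrays, which gave 18193 genes. The log2 of the deposited intensities was fitted in 1 model of 3 population means with limma 3.58.1 (R 4.3.3; 3 residual and 4.25 prior degrees of freedom). Tests were two-sided, with Benjamini-Hochberg adjustment over all genes and a threshold of 0.05. The script was tested on simulated data. Each array was measured against a background level of 27.5. With 2 arrays per population, their number limits the precision.

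The members and gene lists were chosen with earlier results of these data known. All members are named, with the (at most 4) called genes of each list that differed most in HF-TAC against aHF-SC, the 5 genes most like the mean member profile, and the sorting markers; others are named as chosen after their values were seen, and marker genes stand beside the results they move with. Alternatives covered normalisation, an added offset of 16, dim genes, the choice of probe set, the replicate block, array weights, the variance prior, the groups fitted and each array left out.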

Additional observations from a re-analysis of the deposited data

How the results depend on the processing

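With an array left out in turn, the number of the 9 keratins called higher lay between 1 and 5 for HF-TAC against aHF-SC (4 with all arrays), between 3 and 5 for HF-TAC against qHF-SC (5), and between 0 and 3 for aHF-SC against qHF-SC (1); the number called lower lay between 0 and 1 for HF-TAC against qHF-SC. With 16 added to every intensity the number called higher was 2 for HF-TAC against aHF-SC and 0 for aHF-SC against qHF-SC, and with only the compared groups fitted it was 3 for aHF-SC against qHF-SC. Where 1 array of a group was left, it was assumed to vary like the other groups. The sign of 6 differences, none of them called with all arrays, changed with an array left out: log2 differences ran from -0.67 to 0.31 (Krt32) and from -0.088 to 0.052 (Krt82) in HF-TAC against aHF-SC, from -0.82 to 0.15 (Krt32) in HF-TAC against qHF-SC, and from -0.37 to 0.059 (Krt32), -0.30 to 0.45 (Krt34) and -0.11 to 0.77 (Krt86) in aHF-SC against qHF-SC. Krt82 was also 0.0054 in HF-TAC against aHF-SC with arrays centred on the median. The cause was not tested.

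Deviations of same-numbered arrays correlated at 0.084 for HF-TAC and aHF-SC, -0.13 for HF-TAC and qHF-SC and 0.061 for aHF-SC and qHF-SC. These values show no strong shift shared by same-numbered arrays. They cannot tell whether such arrays share animals or a sort, which the labels leave out. In a fit with the numbers as a replicate block, 4, 4 and 1 keratins were called higher in the 3 comparisons; Krt33b in HF-TAC against qHF-SC was the 1 call that changed (adjusted p = 0.0570). Over all genes, leaving out an array moved the calls between aHF-SC and qHF-SC from 558 higher and 584 lower to between 54 and 634 higher and between 70 and 720 lower, and the added 16 to 215 and 333. For HF-TAC against aHF-SC they moved from 1632 and 1559 to between 766 and 1550 higher and between 877 and 1316 lower, and for HF-TAC against qHF-SC from 2445 and 2345 to between 1361 and 2308 higher and between 1532 and 2280 lower. Leaving out dim genes gave no value for Krt34, Krt82 and Krt86, and leaving out probe sets shared between genes gave none for Krt82. Signal over background limits what can be said of Krt82, Krt86 and Krt34, and of the qHF-SC levels of Krt35 and Krt33a. It also limits Krt32 and the levels of Krt33b and Krt36 in the stem cells and on HF-TAC replicate 1, since genes of other tissues reached such intensities. On that HF-TAC array Krt33b had 73.2 and Krt36 had 105, while Ins2 had 87.0 to 117 over the 6 arrays.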

Other observations

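Between aHF-SC and qHF-SC, 3 of 9 other hair shaft genes passed the test, chosen here after their values were seen. Padi3, a peptidylarginine deiminase that modifies trichohyalin, had intensities of 114 and 107 in aHF-SC against 17.6 and 20.2 in qHF-SC (limma adjusted p = 0.00508). Prr9, a proline-rich protein, had 95.8 and 113 in aHF-SC against 30.7 and 14.5 in qHF-SC (adjusted p = 0.0139). The qHF-SC means of both genes were below the background level of 27.5, so the size of their folds is not given. Selenbp1 went the other way, with 157 and 237 in aHF-SC against 455 and 572 in qHF-SC (log2 difference -1.40, adjusted p = 0.0439). Padi3 was thus above the background level on both aHF-SC arrays and below it on both qHF-SC arrays, as was Krt35. Krt17, a keratin of the outer root sheath and of dividing follicle cells, had 8434 and 9063 in aHF-SC against 4248 and 1962 in qHF-SC (adjusted p = 0.0429).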
